A study of Mus musculus with 9 samples.

Results

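Expression of the interleukin-12 family was examined in mouse bone marrow-derived macrophages stimulated with tenascin C (TNC), through 4 cytokine subunits and 2 receptor chains. Members were taken by gene symbol: Il12a, Il12b, Il23a, Il27 and Ebi3 for the cytokines, and Il12rb1 and Il12rb2 for the receptors. Of these 7 genes, 6 had a probe set on the array that was annotated to that gene alone, 7 probe sets in all, out of 18193 genes and 45037 probe sets. Il12b had 2 probe sets, each other member had 1, and Il27 was not analysed here.

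The 9 arrays fell into 3 groups of 3. All cells came from marrow of BALB/c mice aged 8 to 10 weeks, were differentiated for 7 days with macrophage colony-stimulating factor (M-CSF) and were held overnight in 1% serum with M-CSF. In TNC + TLR4i, cells received 3 µM TAK-242, an inhibitor of Toll-like receptor 4 (TLR4), for 1 h and then 2 µg/ml recombinant TNC for 6 h. In TNC + vehicle, 0.1% DMSO took the place of the inhibitor before the same TNC stimulation. Untreated cells have no addition named in the labels. None of the 9 arrays was labelled as vehicle alone, as inhibitor alone or as a control for endotoxin, so TNC cannot be told apart from its vehicle against untreated cells, nor from the inhibitor where both were given. The labels speak of biological replicates and do not say whether each came from its own mouse, so p-values measure the spread between these samples.

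Cytokines of this family are pairs of an alpha subunit and a beta subunit. The beta subunit p40, encoded by Il12b, joins p35 (Il12a) to make IL-12 and p19 (Il23a) to make IL-23, while the beta subunit EBI3 joins p28 (Il27) to make IL-27 and p35 to make IL-35. Macrophages and dendritic cells make IL-12, IL-23 and IL-27 after Toll-like receptor signals. IL-12 acts through the receptor chains IL-12Rβ1 (Il12rb1) and IL-12Rβ2 (Il12rb2), found mainly on T cells and NK cells, where it drives interferon-γ production, and IL-12Rβ1 also serves the IL-23 receptor.

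Values are log2 signals after robust multiarray averaging (RMA), so a difference of 1 is a doubling. Calls needed 2 things in limma, an empirical Bayes test fitted to all probe sets: a change of 1.5-fold or more and an adjusted p below 0.05. The arrays were alike in distribution, with medians of 6.72 to 6.74 and lowest values of 5.44 to 5.47. Arrays of 1 group correlated at 0.994 to 0.996 across probe sets. The 3′ minus 5′ signal of the actin control, a sign of RNA integrity, was 0.30 to 0.37 in TNC + TLR4i, 0.20 to 0.22 in TNC + vehicle and 0.29 to 0.32 in untreated arrays. It was thus lower in TNC + vehicle than in both other groups. For the Gapdh control it was -0.32 to -0.26, -0.33 to -0.30 and -0.35 to -0.33 in the same order, with TNC + vehicle overlapping both others. The part of these differences in the results was not tested. Ebi3 lay far above the array median in every array. The other members lay between 5.72 and 7.22, where RMA leaves a floor that understates fold changes, and no detection call was available.

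The first question was which members responded to TNC. Both beta subunits rose with TNC + vehicle relative to untreated cells: Il12b by 1.87-fold and Ebi3 by 1.54-fold. The alpha subunits Il12a and Il23a and the receptor chains Il12rb1 and Il12rb2 were not called, with log2 differences of -0.07 to 0.17. Thus 2 of 6 members were called higher, where 3.74% of all genes were, and 0 were called lower, where 4.05% of all genes were. Without adjustment, 3 members had p below 0.05 and were higher and 0 were lower, against 17.8% of all genes higher and 20.8% lower at that limit. For 4 of 6 members the groups did not overlap, as was the case for 42.3% of all genes. The median change was 0.14 over the 6 members and 0.01 over all genes.

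The second question was which part of this the TLR4 inhibitor removed. Il12b and Ebi3 were the members called lower in TNC + TLR4i than in TNC + vehicle, by 1.86-fold and 2.04-fold, and again no alpha subunit or receptor chain was called. These are 2 of 6 members, against 4.05% of all genes called lower. The inhibitor raised 0 members, where 4.25% of all genes were called higher. By unadjusted p below 0.05, 0 members were higher and 2 lower, against 22.2% of all genes higher and 16.6% lower. The groups did not overlap for 2 of 6 members, as for 42.2% of all genes, and the median change was -0.11 for the members and 0.00 for all genes. Because both comparisons use the same TNC + vehicle arrays, a chance high or low value there moves them in opposite directions.

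**Figure D1:**
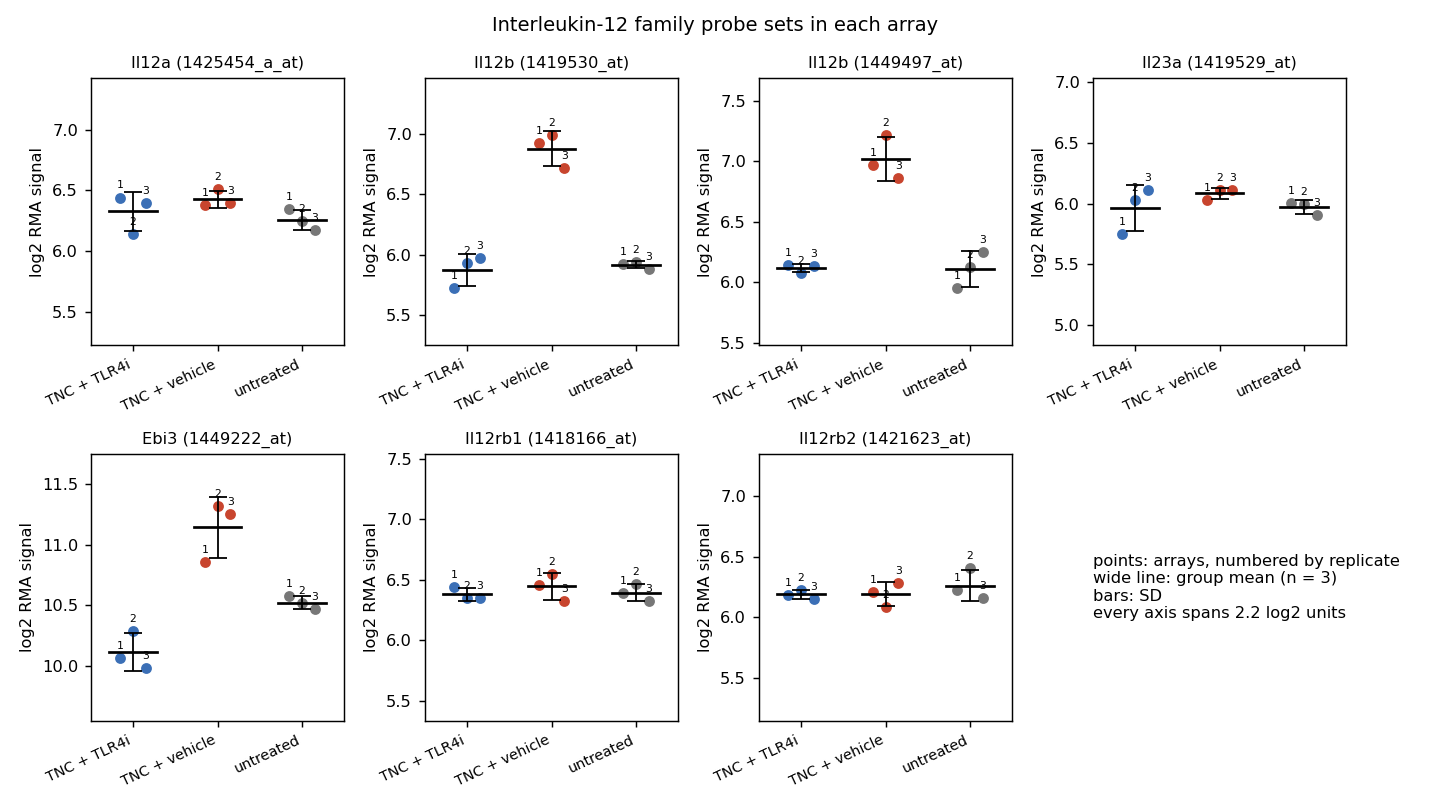
Log2 RMA signal of the 7 probe sets, with 1 point for each array of a group, numbered by replicate. Wide lines are means and bars are SD (n = 3). Every vertical axis spans the same range. Il12b on both probe sets and Ebi3 are highest in the 3 TNC + vehicle arrays, and Ebi3 is lowest in the 3 TNC + TLR4i arrays, at 9.98 to 10.29.

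Il12b, the subunit common to IL-12 and IL-23, gave the same picture on both probe sets. On 1449497_at the signal was 6.14, 6.08 and 6.13 in TNC + TLR4i arrays, 6.96, 7.22 and 6.86 in TNC + vehicle arrays, and 5.95, 6.13 and 6.25 in untreated arrays. Every TNC + vehicle array was above every other array, while the TNC + TLR4i arrays fell inside the untreated range. The change with TNC was 0.91 ± 0.10 (log2 ± SE; limma adjusted p = 4.35e-05), and with TLR4i relative to TNC + vehicle it was -0.90 ± 0.09 (adjusted p = 1.09e-05). By treat, a limma test against a change of 1.5-fold in place of no change, Il12b was called in neither comparison, and 0 members were called with TNC.

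On the second Il12b probe set, 1419530_at, the signal was 5.72, 5.93 and 5.97 in TNC + TLR4i arrays, 6.92, 6.99 and 6.72 in TNC + vehicle arrays, and 5.93, 5.94 and 5.88 in untreated arrays. Here too the TNC + vehicle arrays stood clear of the others. The changes were 0.96 ± 0.08 with TNC (adjusted p = 3.31e-06) and, with TLR4i relative to TNC + vehicle, a fall with a 95% interval of -1.20 to -0.80 (adjusted p = 5.39e-06). Over the 9 arrays the probe sets correlated at r = 0.97. They are annotated to 1 transcript record and are measured in the same RNA, so the second is no independent replicate.

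Ebi3, the subunit common to IL-27 and IL-35, was already well expressed in untreated macrophages. Its signal was 10.07, 10.29 and 9.98 in TNC + TLR4i arrays, 10.86, 11.31 and 11.25 in TNC + vehicle arrays, and 10.57, 10.52 and 10.46 in untreated arrays. The 3 groups did not overlap, in the order TNC + vehicle, untreated, TNC + TLR4i. The rise with TNC was 0.62 ± 0.11 (limma adjusted p = 0.00108) and the fall with TLR4i relative to TNC + vehicle was -1.03 ± 0.12 (adjusted p = 3.78e-05).

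The rise of Ebi3 was close to the threshold of 1.5-fold, and its 95% interval of 1.31- to 1.81-fold spans it. Without TNC + vehicle replicate 2 the log2 change was 0.54 and without TNC + vehicle replicate 3 it was 0.57. Both are short of the fold threshold, with adjusted p = 0.00477 and 0.00636, within 2.36e-05 to 0.0069 over all alternatives, and they leave Il12b as the single member called higher. Without TNC + vehicle replicate 1, in which Ebi3 was the lowest of the group, the change was 0.76. That array also stood apart in 10 markers of endothelial cells, whose mean log2 signal was 7.58 there and 6.97 in each of the other TNC + vehicle arrays, against 6.70 to 6.71 in TNC + TLR4i and 6.76 to 6.78 in untreated arrays. Its part in the result was not tested beyond that omission. Of these 10 markers 1 was called higher with TNC, the VEGF receptor gene Kdr (1.63), and 2 were called lower with TLR4i relative to TNC + vehicle, Kdr (-1.96) and the endothelial cadherin gene Cdh5 (-0.63). At an unadjusted p below 0.05, 3 were higher and 1 lower with TNC, against 17.8% and 20.8% of all genes. With TLR4i 1 was higher and 6 lower, against 22.2% and 16.6%. The median change of the markers was 0.36 with TNC and -0.48 with TLR4i, the signs seen for Il12b and Ebi3. The markers did not shift as a set in every TNC + vehicle array. Cldn5 was at 7.72, 6.58 and 6.54 in TNC + vehicle replicates 1 to 3 (untreated 6.30 to 6.61). Emcn was at 7.41, 6.19 and 6.28 in the same order (untreated 6.18 to 6.25). Pecam1 was at 7.45, 6.43 and 6.42 (untreated 6.33 to 6.51). Kdr, part of the means of 6.97, was at 9.58 and 9.59 in replicates 2 and 3 (untreated 7.63 to 7.84). Il12b was called with TNC without any single array, at 0.80 to 0.98.

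**Figure D2:**
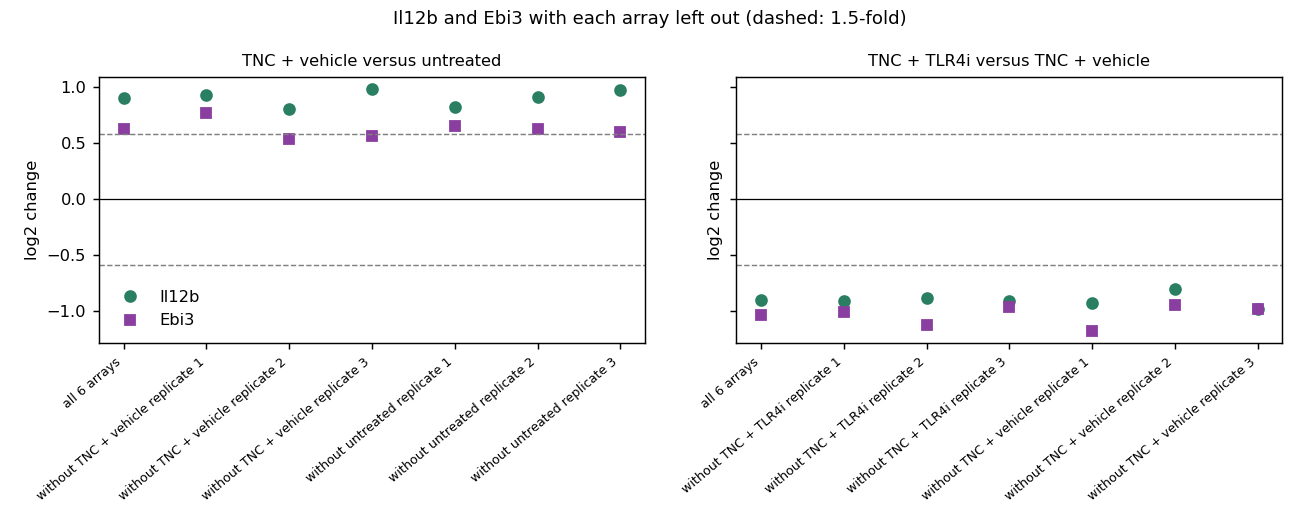
Log2 change of Il12b (circles) and Ebi3 (squares) with all 6 arrays of a comparison and after omission of each single array. Dashed lines mark 1.5-fold. The rise of Ebi3 with TNC is below the threshold without TNC + vehicle replicate 2 (0.54) or 3 (0.57), and every fall with TLR4i is beyond it.

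The window around the start site is shown for the 2 members that moved, Il12b and Ebi3, since both changed with TNC and with the inhibitor. The RefSeq table (GRCm38.p6, the C57BL/6J reference, not the BALB/c strain of these cells) matched 4 of the 7 members. Each window runs 5′ to 3′ from 250 bases before the start site to 50 after it, and capitals mark the matches to the motifs searched. The Il12b window is chr11:44399813-44400112 and the Ebi3 window chr17:55952373-55952672, both on the plus strand.
Il12b: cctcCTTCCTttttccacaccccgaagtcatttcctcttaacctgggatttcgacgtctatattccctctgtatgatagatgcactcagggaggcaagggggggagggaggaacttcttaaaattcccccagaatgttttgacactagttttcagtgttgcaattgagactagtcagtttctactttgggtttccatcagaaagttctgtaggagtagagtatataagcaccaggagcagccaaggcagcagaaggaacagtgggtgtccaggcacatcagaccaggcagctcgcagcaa
Ebi3: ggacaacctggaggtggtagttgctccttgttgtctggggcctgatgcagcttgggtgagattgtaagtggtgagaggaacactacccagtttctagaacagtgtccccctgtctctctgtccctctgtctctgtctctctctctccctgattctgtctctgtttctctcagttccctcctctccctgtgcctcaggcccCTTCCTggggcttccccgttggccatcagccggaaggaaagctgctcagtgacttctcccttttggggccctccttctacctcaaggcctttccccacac

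Both windows held 1 match to the PU.1 motif AGGAAG, on the opposite strand as CTTCCT. It began 246 bases before the start site in Il12b and 50 bases before it in Ebi3. PU.1 is a lineage factor of macrophages, but its motif was in 35.4% of all 32851 promoter windows, so a match is common. Each motif was searched as 1 pattern of letters, so sites with other letters were not looked for. On both strands neither window held the NF-kB pattern GGANTTTCC or the interferon-stimulated response element pattern GAAANNGAA, found in 1.25% and 8.56% of all windows. The AP-1 pattern TGANTCA and the C/EBP pattern TTGCNNAA, found in 7.81% and 10.8%, were also absent. Of the members that were not called, Il12a had the NF-kB letters in 1 of its 2 windows, 18 bases after the start site. A match describes the letters and is no evidence of binding. The absence of a pattern does not show that a window lacks a site, and it says nothing of the factor.

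Il12a, the p35 subunit, was at 6.44, 6.14 and 6.40 in TNC + TLR4i arrays, 6.38, 6.51 and 6.39 in TNC + vehicle arrays, and 6.34, 6.25 and 6.18 in untreated arrays. The TNC + vehicle arrays were all above the untreated arrays, by a mean of 0.17 (95% interval 0.01 to 0.33; limma adjusted p = 0.123). The TNC + TLR4i arrays overlapped both other groups. Its change with TLR4i relative to TNC + vehicle was -0.10 (-0.29 to 0.09; adjusted p = 0.483).

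Il23a, the p19 subunit, was at 5.75, 6.03 and 6.12 in TNC + TLR4i arrays, 6.03, 6.11 and 6.11 in TNC + vehicle arrays, and 6.01, 6.00 and 5.91 in untreated arrays. It also lay above the untreated range in all TNC + vehicle arrays, by a mean of only 0.11 (-0.03 to 0.26; adjusted p = 0.274). With TLR4i relative to TNC + vehicle the change was -0.12 (-0.32 to 0.08; adjusted p = 0.422). For both alpha subunits the intervals leave out a change of 1.5-fold on this scale, but the signals lie at the floor, where a larger change of transcript could read as this small.

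Neither receptor chain was called in any comparison. Il12rb1, which pairs with either IL-12Rβ2 or the IL-23 receptor chain, was at 6.44, 6.34 and 6.35 in TNC + TLR4i arrays, 6.46, 6.55 and 6.33 in TNC + vehicle arrays, and 6.39, 6.46 and 6.33 in untreated arrays. Il12rb2, the signalling chain that defines IL-12-responsive T cells, was at 6.19, 6.23 and 6.15 in TNC + TLR4i arrays, 6.21, 6.09 and 6.28 in TNC + vehicle arrays, and 6.22, 6.41 and 6.16 in untreated arrays. In both genes the groups overlapped in every comparison. The changes with TNC were 0.05 (-0.11 to 0.22) for Il12rb1 and -0.07 (-0.25 to 0.11) for Il12rb2, and with TLR4i relative to TNC + vehicle they were -0.07 (-0.23 to 0.10) and -0.00 (-0.16 to 0.15). The adjusted p lay between 0.614 and 0.981.

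**Figure D3:**
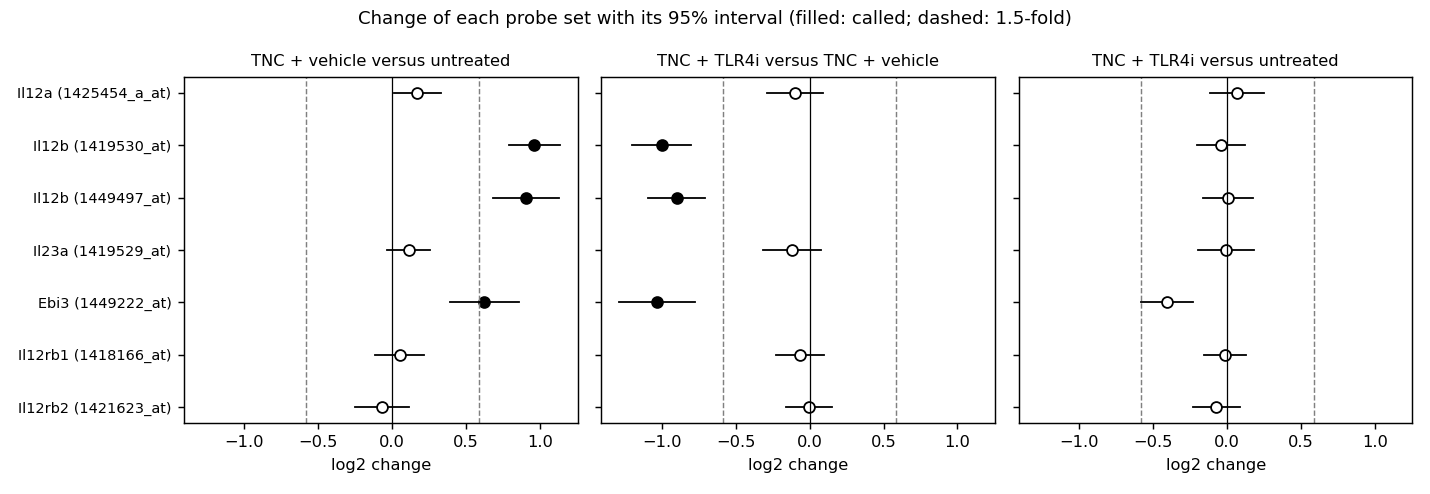
Log2 change of each probe set in the 3 comparisons (points) with its 95% interval from the limma fit (lines). Filled points were called and dashed lines mark 1.5-fold. Il12b and Ebi3 are filled in the first and second panel, no probe set is filled in the third, and the Ebi3 interval there runs from -0.58 to -0.23.

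The third comparison asked what was left of the response in cells given both TNC and inhibitor. No member was called, while 0.0605% of all genes were called higher and 0.198% lower than in untreated cells. By unadjusted p below 0.05, 0 members were higher and 1, Ebi3, was lower, against 4.83% and 4.63% of all genes. Il12b differed by 0.01 (-0.16 to 0.18) on 1449497_at and by -0.04 (-0.20 to 0.12) on 1419530_at. Ebi3 was lower in all 3 TNC + TLR4i arrays than in any untreated array, by 1.33-fold (log2 change -0.41 ± 0.08; limma adjusted p = 0.0452), below the fold threshold. It was the single member without overlap, out of 6, against 15.2% of all genes. That adjusted p ranged from 0.00281 to 0.219 over the alternatives and was above 0.05 when any single array was omitted, except TNC + TLR4i replicate 2 (0.0132). The other 4 members differed by -0.07 to 0.07.

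The genes whose pattern over the 9 arrays was most like a called member were looked up among 608 genes that varied by at least 1 log2 unit between group means. Since the arrays form 3 groups, such an r mostly repeats the group means and is given as a description. For Ebi3 they were Pilrb1, a paired immunoglobulin-like receptor (r = 0.991), Themis2, a signalling adaptor of myeloid and B cells (r = 0.988), and Ikzf1, the transcription factor Ikaros (r = 0.981). Like Ebi3, these 3 had their lowest mean in TNC + TLR4i: 8.48 for Pilrb1, against 9.53 in TNC + vehicle and 8.90 in untreated arrays. For Il12b they were a probe set annotated to an immunoglobulin kappa variable segment (r = 0.990), Idi1, an enzyme of isoprenoid synthesis (r = 0.986), and Traf1, an adaptor of TNF receptors (r = 0.983). Traf1 averaged 7.14 in TNC + TLR4i, 8.44 in TNC + vehicle and 7.13 in untreated arrays.

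Among the chains that complete the receptors, Il6st, which encodes the gp130 chain shared by the receptors for IL-27 and IL-6, moved against the beta subunits. It was at 9.94, 9.97 and 9.96 in TNC + TLR4i arrays, 9.42, 9.26 and 9.40 in TNC + vehicle arrays, and 10.05, 9.91 and 9.93 in untreated arrays. The TNC + vehicle arrays were below all others, with a change of -0.60 ± 0.07 with TNC (adjusted p = 8.03e-05) and 0.59 ± 0.07 with TLR4i relative to TNC + vehicle (adjusted p = 4.77e-05), each just past 1.5-fold. Il27ra, the other chain of the IL-27 receptor, differed by 0.14 (-0.10 to 0.37) with TNC and was not called in any comparison. These were the 2 genes measured of that list.

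Of 8 measured kinases and STAT factors downstream of the receptors, 2 rose and 0 fell with TNC, against 3.74% and 4.05% of all genes. By unadjusted p below 0.05, 6 were higher and 1 lower, against 17.8% and 20.8% of all genes. With TLR4i relative to TNC + vehicle these counts were 1 higher and 5 lower, against 22.2% and 16.6%. The same shares of all genes apply to the lists that follow. Jak2, the kinase bound to IL-12Rβ2, rose by 1.32 ± 0.06 (adjusted p = 5.82e-08) and Stat2, a factor of the interferon response, by 1.91 ± 0.11 (adjusted p = 1.6e-07). Both fell with TLR4i relative to TNC + vehicle, by -1.31 and -2.43. Stat4, the factor through which IL-12 acts in T and NK cells, was at 6.12 to 6.28 in TNC + TLR4i, 6.19 to 6.40 in TNC + vehicle and 6.30 to 6.33 in untreated arrays and was not called. The list's median change was 0.28 with TNC and -0.27 with TLR4i.

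A list of transcription factors linked to the Il12, Il23 and Il27 genes held 16 measured genes, of which 5 rose and 1 fell with TNC. Whether each acts on a promoter of the family was not tested. The interferon regulatory factors Irf7 (1.33) and Irf1 (1.32), the AP-1 factor Batf (1.11) and the NF-kB subunit Nfkb2 (0.98) led the rises, and the NF-kB subunit Relb (0.91) was the other. Jun, a subunit of AP-1, fell by 0.61. Before adjustment, 10 were higher and 5 lower with TNC at p below 0.05. The lower ones besides Jun were the interferon regulatory factor Irf8 (-0.36), the AP-1 factors Batf3 (-0.47) and Fos (-0.24), and Runx1 (-0.20). With TLR4i the same 5 genes fell relative to TNC + vehicle, by 0.98 to 1.60 on the log2 scale, and 0 rose. Before adjustment, 4 were higher and 9 lower at p below 0.05. The NF-kB subunit Rel, which is needed for Il12b induction in mouse macrophages, averaged 7.72 in TNC + TLR4i, 8.13 in TNC + vehicle and 7.72 in untreated arrays, a change of 0.41 with TNC that was short of 1.5-fold (limma adjusted p = 0.00241). The median change of the list was 0.32 with TNC and -0.31 with TLR4i.

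Of 11 genes listed as regulators of these cytokines or their signalling, mostly restraints, 2 rose and 1 fell with TNC, or 5 and 2 by unadjusted p below 0.05. Nfkbiz (-0.46), lower at that limit, is not simply a restraint, so the counts are no measure of restraint. The feedback inhibitors Socs3 (1.77) and Socs1 (1.02) rose, and Ptger2, a receptor for prostaglandin E2, fell by 1.01. With TLR4i relative to TNC + vehicle, Socs3, Socs1, Ptger4 and Il10 fell and Ptger2 rose by 1.23, where 5 were lower and 2 higher by unadjusted p below 0.05. Il10, an inhibitor of IL-12 production, was at 6.70, 6.59 and 6.70 in TNC + TLR4i arrays, 7.13, 7.97 and 7.85 in TNC + vehicle arrays, and 7.12, 7.25 and 7.33 in untreated arrays. The TNC + vehicle arrays overlapped the untreated arrays, and Il10 was not called with TNC (0.42; adjusted p = 0.104), while TNC + TLR4i was below both (-0.99 relative to TNC + vehicle, adjusted p = 0.000823). Against untreated cells it differed by -0.57 (adjusted p = 0.00392), below the fold threshold. The median change of this list was 0.10 with TNC and -0.14 with TLR4i.

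A further list held other macrophage signals to T and NK cells. It was not tested against the family, whose dim members have understated fold changes. Of 10 such genes 9 rose with TNC and the same 9 fell with TLR4i relative to TNC + vehicle, at medians of 2.32 and -2.48. The chemokines Cxcl10 (4.04) and Cxcl9 (4.02), Il1b (3.94) and the costimulatory receptor Cd40 (3.83) rose most, and only the costimulatory ligand Cd80 (-0.21) did not rise. Of the genes listed as responses of T and NK cells to these cytokines, 6 of 6 were not called in any comparison. At unadjusted p below 0.05 with TNC, 1 gene, Eomes, was higher (0.23, limma adjusted p = 0.0403), short of 1.5-fold. Ifng, the main product of IL-12-stimulated cells, was at 5.81 to 6.10 in TNC + TLR4i, 5.81 to 5.87 in TNC + vehicle and 5.87 to 6.00 in untreated arrays.

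**Figure D4:**
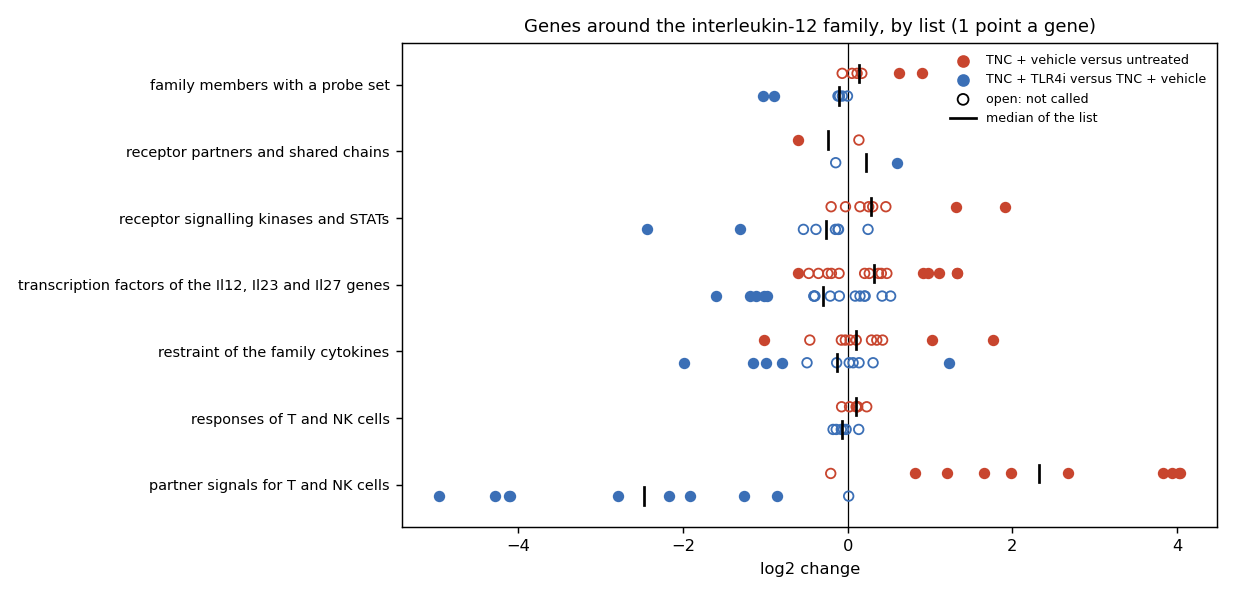
Log2 change of each gene (points) in the family and in 6 lists of related genes, for TNC + vehicle against untreated (red) and TNC + TLR4i against TNC + vehicle (blue). Filled points were called and black bars are list medians. The partner signals for T and NK cells have medians of 2.32 and -2.48, against 0.14 and -0.11 for the 6 family members.

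The cells had high signal for 7 macrophage markers, whose mean log2 signal was 12.28 to 12.36 in TNC + TLR4i, 12.37 to 12.45 in TNC + vehicle and 12.35 to 12.40 in untreated arrays. Among them 1, the activating Fc receptor Fcgr1, rose with TNC by 0.94 and fell with TLR4i relative to TNC + vehicle by 1.15, and the other 6 were not called. By unadjusted p below 0.05 with TNC, Cd68 (-0.25), Itgam (-0.25) and Mertk (-0.20) were lower. Dendritic cells also make IL-12, and 9 of their markers averaged 6.51 to 6.59, 6.57 to 6.59 and 6.52 to 6.61 in the same 3 groups, with 0 of 9 called in any comparison. The mean of 6 T cell markers was 6.62 to 6.71, 6.64 to 6.78 and 6.62 to 6.75, and that of 6 NK cell markers 6.25 to 6.33, 6.26 to 6.51 and 6.14 to 6.22, again with 0 called. The lists of B cell and neutrophil markers also had 0 called genes. By unadjusted p below 0.05 with TNC, 1 dendritic cell marker was higher and 1 lower, 1 T cell marker was lower and 3 NK cell markers were higher. At the same limit 1 marker was higher and 1 lower for B cells and likewise for neutrophils. In bulk RNA, fewer expressing cells and less RNA per cell cannot be told apart.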

How the data were processed

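RNA of 9 macrophage cultures was hybridised to Affymetrix GeneChip Mouse Genome arrays. The authors normalized the arrays by RMA in Chipster, and the deposited values are log2 signals of probe sets. This method corrects background, equalises the distribution of the arrays and summarises probes, so that a change of total RNA would be hidden. The log base was read from the values, 5.44 to 14.69.

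The 64 control probe sets were left out, leaving 45037. A platform table gave 34945 of them 1 gene, 932 several and 9160 none. For a gene with several, the one of highest mean was used, which gave 18193 genes. Each pair of groups was fitted on its 6 arrays (limma 3.58.1, R 4.3.3, lmFit with eBayes), two-sided, with Benjamini-Hochberg adjustment across all 45037. The fit was tested on simulated data. The number of arrays limits the precision.

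All members are named, with up to 4 called genes of each list by size of change with TNC and the 3 genes most like each called member. Fcgr1, Cd68, Itgam, Mertk, Cdh5, Emcn, Cldn5, Pecam1, Irf8, Batf3, Fos, Runx1, Jun, Relb, Rel, Stat4, Il10, Ptger4, Nfkbiz, Il27ra, Cd80, Kdr, Eomes and Ifng were chosen after their values were seen. The members, lists and tests were chosen with earlier results of these data known. The alternatives covered the arrays fitted, a replicate block, dim probe sets, normalization, moderation, array weights, averaged probe sets, thresholds, treat and each array left out.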

Additional observations from a re-analysis of the deposited data

How the results depend on the processing

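For members, 222 of 240 log2 changes under an alternative kept their direction and side of the threshold, 2 lost the call (Ebi3 with TNC, as given above) and 16 changed sign, all of them in changes that were never called. The number of members higher with TNC was 1 to 2 when an array was left out, and 0 at a minimum of 2-fold or with treat against 1.5-fold. The number lower with TLR4i relative to TNC + vehicle was 1 under both of these, Ebi3, since Il12b lost its call. With no minimum fold, 1 member, Ebi3, was lower in TNC + TLR4i than in untreated cells. When arrays were left out, changes with TNC ran from -6.62e-05 to 0.11 for Il12rb1 and from -0.12 to 0.00464 for Il12rb2, and with TLR4i relative to TNC + vehicle from -0.057 to 0.042 for Il12rb2. In TNC + TLR4i against untreated they ran from -0.074 to 0.077 for Il12b, -0.081 to 0.10 for Il23a, -0.048 to 0.020 for Il12rb1 and -0.12 to 0.000817 for Il12rb2, and averaging probe sets gave -0.017 for Il12b. Leaving out dim probe sets kept 2 members, Il12b and Ebi3. The cause of these shifts was not tested.

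Same-numbered arrays of different groups deviated with correlations of -0.10 to 0.14, over 0.1 in 1 of 9 pairs. Arrays with different numbers gave -0.12 to 0.10, and 4 of 9 arrays correlated best with their own number. With so few arrays in a group, these correlations cannot decide whether the numbers pair the samples. With a replicate block 2 members were still higher with TNC and 2 lower with TLR4i, and the adjusted p of Ebi3 in TNC + TLR4i against untreated was 0.0537.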
